A study of Mus musculus with 4 samples.

Results

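The cartilage collagens examined here were the products of 7 genes, Col2a1, Col9a1, Col9a2, Col9a3, Col10a1, Col11a1 and Col11a2. They were found by exact gene symbol among the 32285 features of the count tables, and each matched 1 feature. RNA was measured with spatial arrays on frozen sections of tibial muscle, as unique molecular identifiers (UMIs, a count of captured RNA molecules) per gene and capture spot. The mice were Nse-Bmp4 animals on C57BL/6 aged 6 to 8 weeks, in which a rat neuron-specific enolase promoter drives Bmp4, and the uninjured controls carried the same transgene. There were 4 sections, 1 each from uninjured muscle (day 0) and from muscle collected on day 1, day 3 or day 7 after cardiotoxin injury. No section came from mice without the transgene. The labels give 3 muscles mixed for each group, and how these map onto a section is not settled. Sections held 2107, 2667, 3029 and 3032 spots at days 0, 1, 3 and 7, with 43871586, 16777832, 56113066 and 41832640 UMIs. Adult myofibre genes, a fixed list of 14 marker genes, took 27.3%, 15.0%, 9.10% and 15.8% of the UMIs. Of 4078 distinct spot barcodes, 1341 occurred in all 4 sections, since a barcode marks an array position and is reused between slides. With 1 section per day there was no spread between animals to test against, so ratios carry 95% counting intervals and no p-value.

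Heterotopic ossification (HO) driven by BMP4 runs through a cartilage stage, in which mesenchymal cells become chondrocytes and lay down a matrix that bone later replaces. Type II collagen, made of Col2a1 chains, is the main fibril of that matrix. Type XI collagen, built from Col11a1 and Col11a2 chains with a product of Col2a1, lies inside the fibril and limits its width. Type IX collagen, built from the Col9a1, Col9a2 and Col9a3 chains, sits on the fibril surface and links it to the surrounding matrix. Type X collagen, made of Col10a1 chains, forms a network around hypertrophic chondrocytes, the enlarged cells at the border to bone. Transcription factors of the SOX family are known to drive the type II, IX and XI genes, and RUNX factors are known to drive Col10a1.

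All 7 genes were at trace levels through day 3 and were far higher at day 7. Col2a1 gave 13, 2, 5 and 25868 UMIs at days 0, 1, 3 and 7. As UMIs per 1000000 UMIs of the section (CPM) these were levels of 0.296, 0.119, 0.0891 and 618. The day 7 level was 6940 times that at day 3, with an interval from 2973 to 21375 that is wide because day 3 held 5 UMIs. In a bulk section or a spot, fewer cells of a type and less RNA per cell cannot be told apart.

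The type IX genes shared that course but differed before day 7. Col9a1 gave 7, 17, 20 and 7558 UMIs at days 0, 1, 3 and 7, which is 0.160, 1.01, 0.356 and 181 CPM. Col9a2 gave 34, 0, 3 and 6089 UMIs, which is 0.775, 0, 0.0535 and 146 CPM. Col9a3 gave 22, 5, 31 and 6630 UMIs, which is 0.501, 0.298, 0.552 and 158 CPM. Among the chains needed for a type IX molecule, Col9a1 had its lowest early level at day 0, whereas Col9a2 had its highest early level there. Day 7 over day 3 the ratios were 507 for Col9a1 (328 to 830), 2723 for Col9a2 (931 to 13206) and 287 for Col9a3 (202 to 423).

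The type XI genes were the members with the most UMIs before day 7. Col11a1 gave 70, 31, 185 and 9260 UMIs at days 0, 1, 3 and 7, a level of 1.60, 1.85, 3.30 and 221 CPM. Col11a2 gave 181, 36, 186 and 6016 UMIs, a level of 4.13, 2.15, 3.31 and 144 CPM. Col11a1 was 2.07 times its day 0 level at day 3 (1.56 to 2.76), and Col11a2 was 0.803 times its day 0 level (0.651 to 0.991). From day 3 to day 7 the ratios were 67.1 for Col11a1 (58.0 to 78.1) and 43.4 for Col11a2 (37.5 to 50.5).

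Col10a1, the hypertrophic member, gave 0, 0, 19 and 444 UMIs at days 0, 1, 3 and 7. These were levels of 0, 0, 0.339 and 10.6 CPM, and 0 UMIs allows a level of up to 0.0684 CPM at day 0 and 0.179 CPM at day 1, taking 3 UMIs as the limit. Against that limit the day 7 level was at least 155-fold higher than day 0, and it was 31.3 times the day 3 level (19.8 to 52.6). At day 3 Col10a1 therefore had more UMIs than Col2a1, and they lay in 18 spots with at most 2 in any spot. The plot of levels by day shows the 7 genes on a common log axis.

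**Figure D1:**
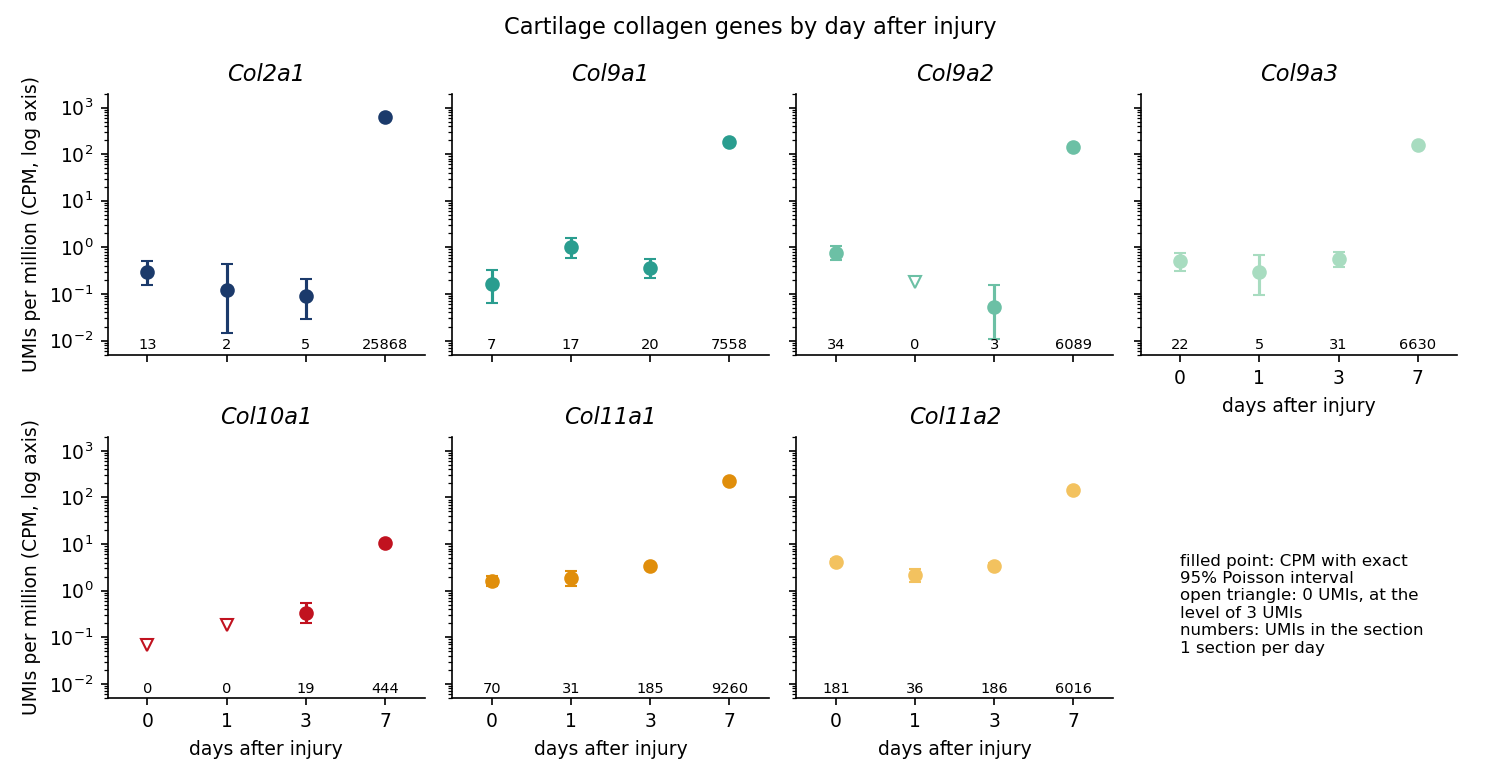
Level of each cartilage collagen gene in the day 0, 1, 3 and 7 sections, as CPM on a log axis, with exact 95% Poisson intervals and the UMI count printed above the x axis. Open triangles mark sections with 0 UMIs, at the level that 3 UMIs would give. Each gene has its highest point at day 7, from 10.6 CPM for Col10a1 to 618 CPM for Col2a1, and none of the earlier points passes 4.13 CPM.

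The members' counts were read against all 17250 features with at least 10 UMIs over the 4 sections, of which the 7 members are a part. At day 7 over day 0, 7 of 7 members were at least 2-fold higher, against 32.0% of all features. At day 7 over day 3, 7 of 7 were at least 2-fold higher, against 16.5%, and 7 of 7 were at least 10-fold higher, against 0.997%. The members' median log2 ratio was 7.55 at day 7 over day 0 and 8.16 at day 7 over day 3, beside 0.65 and 0.09 over all features. No member was at least 2-fold lower at day 7, against 2.13% of all features over day 0 and 11.4% over day 3.

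The earlier days gave no such pattern. At day 1 over day 0, Col9a1 was at least 2-fold higher, 1 of 7, against 16.6% of all features, and Col9a2 was at least 2-fold lower, 1 of 7, against 9.93%. At day 3 over day 0, Col9a1, Col10a1 and Col11a1 were at least 2-fold higher, 3 of 7, against 31.9%. Col2a1 and Col9a2 were at least 2-fold lower, 2 of 7, against 8.53%. The Col9a1 ratio at day 1 was 6.35 (2.50 to 18.1), and the Col9a2 ratio at day 3 was 0.0690 (0.0136 to 0.219). Scaling by edgeR TMM factors or DESeq2 size factors lowered every log2 ratio to day 0 by 0.19 at day 1, by 0.55 or 0.56 at day 3 and by 0.61 or 0.64 at day 7, relative to the section total. Under either scaling 2 of 7 members, Col9a2 and Col11a2, were at least 2-fold lower at day 1. The share of all features at day 1 under these scalings is not given here, so that count stands without a background. At day 3, 1 of 7, Col10a1, was at least 2-fold higher, against 18.6% of all features with TMM factors and 18.4% with size factors. Without the 1% of spots richest in members in each section, the log2 ratio of Col2a1 at day 3 over day 0 turned from -1.73 to 0.40.

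Promoter sequence is shown for the hypertrophic gene Col10a1 and for the type XI pair, whose share of each other shifted over the days. The windows run from 250 bases before to 50 bases after the annotated start, from RefSeq on GRCm38.p6, and are written 5′ to 3′. Capitals mark 5 words searched on both strands. These are ACAATG and ACAAAG (SOX-type letters), TGTGGT (RUNX-type letters), TATAAA and GGGCGG, or their reverse complements, and no marked words overlap.
Col10a1, chr10:34389731-34390030, plus strand: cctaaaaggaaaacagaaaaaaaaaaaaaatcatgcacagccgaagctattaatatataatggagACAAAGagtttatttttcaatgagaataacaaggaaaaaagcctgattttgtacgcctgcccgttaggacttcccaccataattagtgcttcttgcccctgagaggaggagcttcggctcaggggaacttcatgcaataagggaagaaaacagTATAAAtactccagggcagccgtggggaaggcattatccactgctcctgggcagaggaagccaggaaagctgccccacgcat
Col11a1, chr3:114030290-114030589, plus strand: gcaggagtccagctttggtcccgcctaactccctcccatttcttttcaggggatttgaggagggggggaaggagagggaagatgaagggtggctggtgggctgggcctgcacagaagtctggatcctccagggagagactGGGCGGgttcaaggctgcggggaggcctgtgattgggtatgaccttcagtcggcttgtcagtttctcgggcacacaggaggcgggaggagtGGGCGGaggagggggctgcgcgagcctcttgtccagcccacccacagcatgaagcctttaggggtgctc
Col11a2, chr17:34038888-34039187, plus strand: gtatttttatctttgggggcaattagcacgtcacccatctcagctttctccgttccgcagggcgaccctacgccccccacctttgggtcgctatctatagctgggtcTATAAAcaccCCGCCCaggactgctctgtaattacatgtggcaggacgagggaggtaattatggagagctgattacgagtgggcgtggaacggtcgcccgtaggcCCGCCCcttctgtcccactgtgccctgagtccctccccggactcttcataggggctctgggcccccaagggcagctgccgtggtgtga
Of the 7 genes, 5 matched the promoter table, with 6 windows because Col9a1 has an upstream and a downstream start. The Col10a1 window held ACAAAG with its first base 185 bases before the start and TATAAA 32 bases before it. Of 32851 promoter windows of the same length, 18.7% held ACAAAG and 13.6% held TATAAA. The Col11a1 window held GGGCGG at 2 places and no TATAAA. The Col11a2 window held GGGCGG at 2 places and TATAAA at 1, 143 bases before the start and so farther from it than in Col10a1. The Col9a2 window held GGGCGG at 3 places, and 35.7% of all windows held that word. Neither Col9a1 window held any of the 5 words. ACAATG and TGTGGT were in none of the 6 windows and in 12.6% and 16.8% of all windows. G and C made up 44.3% of the Col10a1 window and 62.3% of the Col11a1 window, beside a median of 52.7% over all windows.

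At day 7 the RNA was spread over much of the section but concentrated in few spots. Col2a1 was found in 2219 of 3032 spots (73.2%), Col11a1 in 1597 (52.7%) and Col10a1 in 233 (7.68%). The other members were found in between 1366 and 1443 spots. After each spot was thinned to 2000 UMIs, the shares fell to 37.8% for Col2a1, 22.3% for Col11a1 and 1.92% for Col10a1. The 31 spots richest in Col2a1 held 23.5% of its UMIs, and the 31 richest in Col10a1 held 47.3% of its UMIs. The corresponding shares of the other members lay between 17.3% and 23.4%.

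Of the day 7 spots, 257 held no member and 144 held all 7. No spot at day 1 or 3 held more than 2 members, and at day 0 the most was 4, in 3 spots. The spot richest in members at day 7 held 228 Col2a1, 88 Col9a1, 46 Col9a2, 111 Col9a3, 106 Col11a1 and 66 Col11a2 UMIs but 0 of Col10a1. The spot richest in Col10a1 held 31 of its UMIs with 216 of Col2a1 and 19 of Col11a1. The next 4 in that order held 18, 18, 18 and 13 Col10a1 UMIs with between 150 and 335 of Col2a1. The richest Col10a1 spots therefore all held Col2a1, whereas the richest spot of the family lacked Col10a1 at its depth of 28020 UMIs.

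Members were next followed across zones of the day 7 section that used no member gene. The 2948 spots with at least 2000 UMIs were sorted by 10 cartilage matrix genes that are not collagens, such as Acan (aggrecan, the large proteoglycan of cartilage), Hapln1 (which ties aggrecan to hyaluronan) and Matn4 (a matrilin). There were 607 spots with none of this RNA, 1466 under 5 UMIs per 10000, 615 at 5 to 20, 143 at 20 to 50 and 117 at 50 or more. Their median depths were 8797, 13177, 14814, 14682 and 9033 UMIs per spot. Zones are parts of 1 section, so their values are a description.

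Each member was higher in each richer zone. Col2a1 stood at 86.9, 143, 612, 2304 and 9173 CPM from the poorest to the richest zone, and its median per spot was 1, 1, 8, 28 and 68 UMIs. In the richest zone its spots ranged from 9 to 335 UMIs, so no spot there lacked Col2a1. Col9a1 stood at 23.4, 36.8, 180, 847 and 2429 CPM, Col9a2 at 25.4, 35.1, 165, 662 and 1700 CPM, and Col9a3 at 25.6, 35.3, 153, 640 and 2290 CPM. From the poorest zone to the 20 to 50 zone the CPM ratio was 36.2 for Col9a1, 26.1 for Col9a2 and 25.04 for Col9a3. From the poorest to the richest it was 104 for Col9a1, 66.9 for Col9a2 and 89.6 for Col9a3.

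Col11a1 stood at 32.1, 58.9, 266, 1065 and 2271 CPM over the zones and Col11a2 at 27.2, 41.1, 155, 563 and 1779 CPM. Col10a1 stood at 1.50, 2.68, 9.56, 27.4 and 182 CPM, and 51 of 117 spots in the richest zone held it. From the 5 to 20 zone to the richest the CPM ratio was 19.0 for Col10a1, 15.0 for Col2a1, 15.0 for Col9a3, 13.5 for Col9a1, 11.5 for Col11a2, 10.3 for Col9a2 and 8.55 for Col11a1. Between these zones Col10a1 thus had the highest ratio and Col11a1 the lowest, but the order depended on the zones compared. From the poorest zone to the 20 to 50 zone Col10a1 had the lowest ratio of the 7, at 18.2, and Col11a1 stood at 33.2. From the poorest zone to the richest Col10a1 was again highest, at 121, while Col11a2 was lowest at 65.3 and Col11a1 stood at 70.8. The plot of zones shows these courses.

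**Figure D2:**
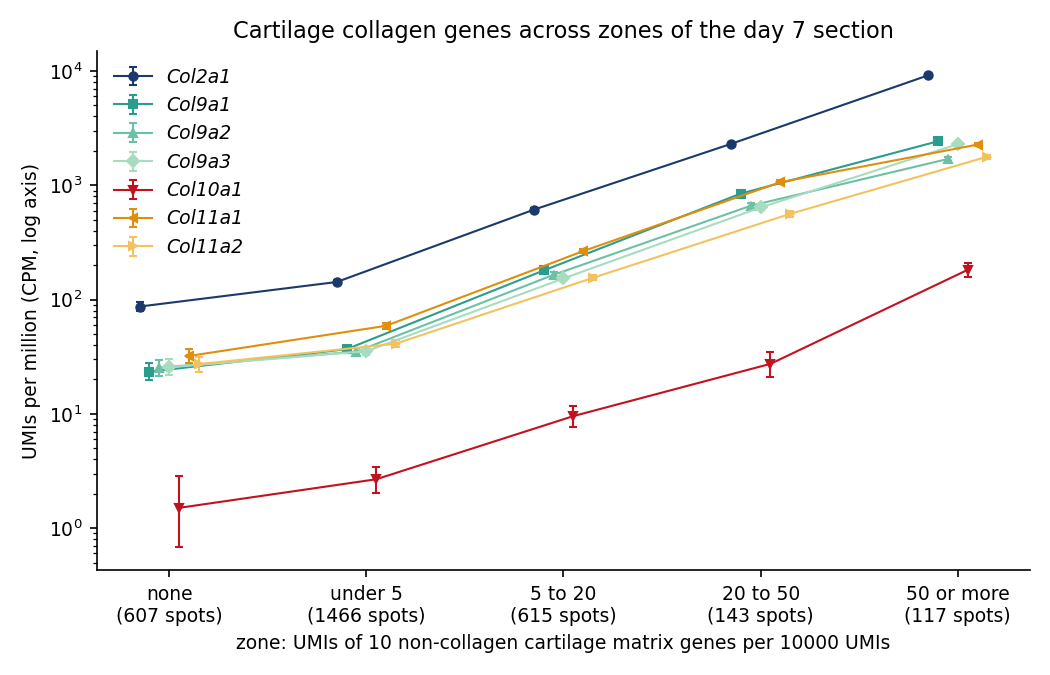
Level of each cartilage collagen gene in 5 zones of the day 7 section, as CPM on a log axis with exact 95% Poisson intervals, points of a gene joined by a line. Zones are defined by 10 matrix genes that are not collagens, and the number of spots stands under each zone. Every member climbs from the zone without this RNA to the richest zone, Col2a1 from 86.9 to 9173 CPM and Col10a1 from 1.50 to 182 CPM.

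Other genes differed in shape over the same zones. Sox9, the factor that specifies chondrocytes, stood at 15.7 CPM in the poorest zone and 640 in the richest, while its partner Sox6 stood at 43.4 in both. Col1a1, the main collagen of bone and fibrous tissue, stood at 2418, 4882, 17737, 39921 and 44315 CPM. Col3a1, a fibril collagen of loose tissue, was at 7560 CPM in the 20 to 50 zone and at 6269 in the richest. The adult myofibre list was lower in richer zones, from 201970 CPM in the poorest to 44812 in the richest.

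Member RNA was also present in day 7 spots rich in muscle. These were 269 spots at or above the 75th percentile of adult myofibre share in the section, without any UMI of the 10 matrix genes. Col2a1 was in 129 of them (48.0%) at 74.7 CPM, Col9a1 in 45 (16.7%) at 20.1 CPM, and Col10a1 in 4 (1.49%) at 1.55 CPM. The same kind of spot held 0 Col2a1 UMIs at day 0 (513 spots), at day 1 (644 spots) and at day 3 (742 spots), which allows up to 0.284, 0.583 and 0.391 CPM at 3 UMIs. Median depth was 8796 UMIs at day 7 and 20506, 8012.5 and 9840 at days 0, 1 and 3. The proportions of members in the poorest zone were close to those of the section for some pairs and apart for others. Col11a1 made up 27.0% of Col11a1 and Col2a1 UMIs in the poorest zone (23.7 to 30.4) and 26.4% over the section. Col10a1 made up 1.70% of Col10a1 and Col2a1 UMIs in that zone (0.781 to 3.20) and 1.69% over the section. By contrast, Col11a2 made up 23.9% of Col11a2 and Col2a1 UMIs there (20.7 to 27.2) and 18.9% over the section (18.4 to 19.3). Col9a1 made up 31.5% of type IX UMIs there (27.2 to 36.0) and 37.3% over the section (36.6 to 37.9). Whether RNA that moved between spots has a part in these low levels was not tested, and shares of spots with a UMI are read against these values.

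The 260 spots at 20 or more per 10000 were then divided by hypertrophy and mineralization genes, which include Ihh (the signal of prehypertrophic cells), Ibsp (bone sialoprotein) and Pth1r (the parathyroid hormone receptor). Nearly all of these spots fell into the same planned class, so they were ranked into terciles of 87, 87 and 86 spots, a choice made after seeing the data. Median depths were 17083, 9234 and 9020 UMIs per spot from the lowest to the highest tercile. Col10a1 stood at 10.7, 21.6 and 261 CPM and was present in 15, 18 and 57 spots. The highest tercile held 239 of its 277 UMIs in these spots, or 86.3%, and exceeded the lowest 24.3-fold (14.9 to 42.5).

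The other members differed less between the terciles and not equally. Col2a1 stood at 1455, 4356 and 10406 CPM, 7.15-fold from lowest to highest (6.83 to 7.49). Col11a2 stood at 439, 1105 and 1762 CPM, 4.02-fold (3.67 to 4.40), and Col11a1 at 970.0, 1676 and 2128 CPM, 2.19-fold (2.05 to 2.35). The intervals of Col2a1, Col11a2 and Col11a1 do not overlap, and they cover counting error only. The type IX genes were 3.18-fold (Col9a1), 2.93-fold (Col9a2) and 3.66-fold (Col9a3) higher.

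Matrix RNA itself moved with the terciles. The 10 matrix genes that are not collagens stood at 2975, 5332 and 6783 CPM, with Acan 1.91-fold and Hapln1 5.51-fold higher in the highest tercile. Sox9 was 1.58-fold higher, Col1a1 1.03-fold and Col3a1 0.732-fold. Tnmd, a tendon marker, was 0.135-fold (0.0480 to 0.307) and Col5a1, a chain of type V collagen, 0.594-fold. The tendon genes did not move together, with Fmod 0.863-fold and Comp 2.73-fold. As a whole the tendon and sheath list rose, at 3257, 3867 and 5069 CPM from the lowest to the highest tercile. When the terciles were drawn among the 117 spots at 50 or more, the log2 difference between highest and lowest changed from 4.60 to 4.40 for Col10a1 but from 2.84 to 1.53 for Col2a1. It changed from 1.13 to 0.46 for Col11a1 and from 1.67 to 0.35 for Col9a1. The plot of terciles sets the members beside these genes.

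**Figure D3:**
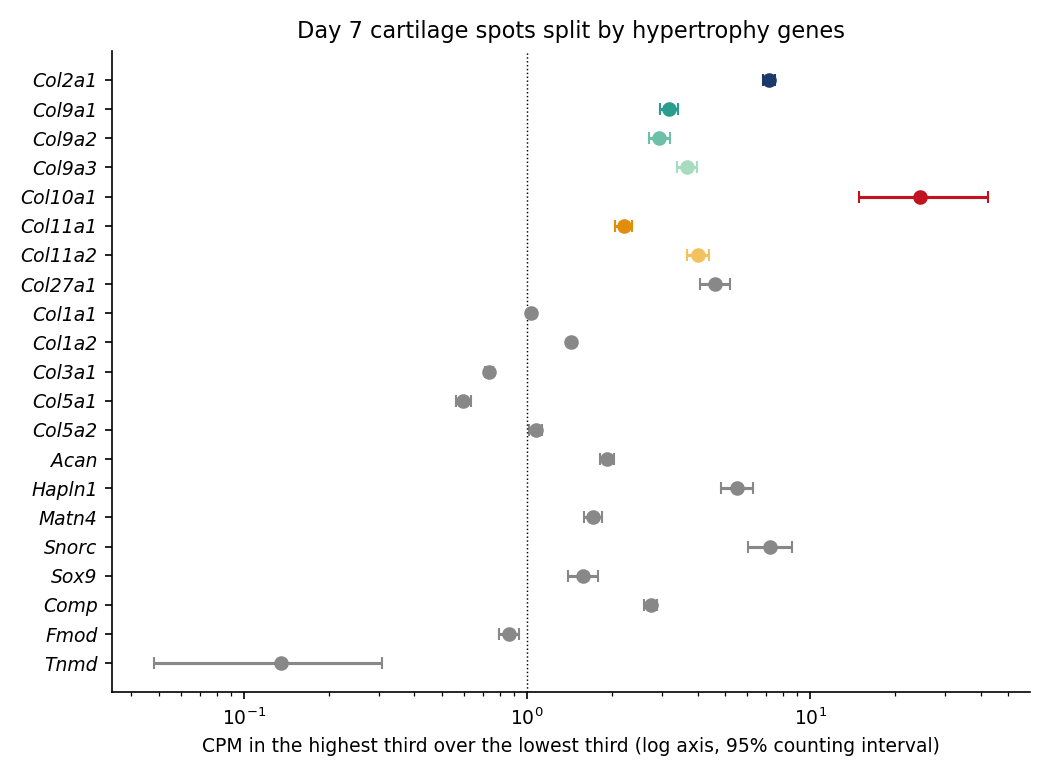
Ratio of CPM in the highest over the lowest tercile of day 7 cartilage spots, ranked by 10 hypertrophy and mineralization genes, on a log axis with 95% counting intervals. Members are in colour and comparison genes in grey, and the dotted line marks a ratio of 1. Col10a1 lies at 24.3, Col2a1 at 7.15 and Col11a1 at 2.19, while Col1a1 lies at 1.03. Of the tendon genes shown, Comp lies at 2.73, Fmod at 0.863 and Tnmd at 0.135.

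The make-up of the fibril genes shifted between days and within the day 7 cartilage, and shares of a gene pair do not depend on gene length when compared between sections. Col11a1 made up 27.9% of the type XI UMIs at day 0 (22.4 to 33.9), 46.3% at day 1 (34.0 to 58.9), 49.9% at day 3 (44.7 to 55.1) and 60.6% at day 7 (59.8 to 61.4). Over the 5 zones at day 7 its share was 54.1%, 58.9%, 63.1%, 65.4% and 56.1% from the poorest to the richest. Over the terciles it was 68.9%, 60.3% and 54.7%. Col11a1 therefore had its largest share in cartilage spots low in hypertrophy genes and its smallest in uninjured muscle.

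Relative to Col2a1, Col11a1 made up 97.4% of the pair's UMIs at day 3 (94.0 to 99.1) and 26.4% at day 7. Within day 7 cartilage spots the share was 40.0%, 27.8% and 17.0% from the lowest to the highest tercile. Among the type IX chains, Col9a1, Col9a2 and Col9a3 made up 11.1%, 54.0% and 34.9% of 63 UMIs at day 0 and 37.3%, 30.0% and 32.7% of 20277 UMIs at day 7. The day 7 shares of the 3 chains lay between 26.5% and 39.4% in every zone, so that the make-up was closer to even there than at day 0. At day 1, with 22 UMIs, Col9a2 was not detected and Col9a1 made up 77.3% (54.6 to 92.2).

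**Figure D4:**
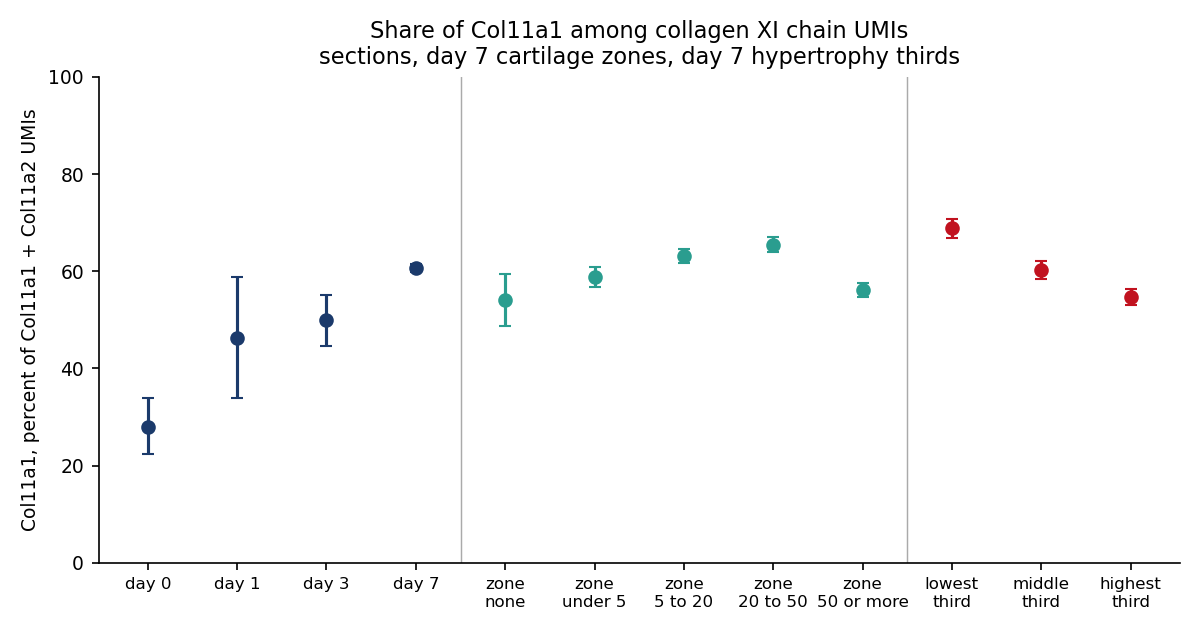
Share of Col11a1 among the UMIs of Col11a1 and Col11a2 in percent, with exact 95% binomial intervals, for the 4 sections, the 5 zones of the day 7 section and the 3 terciles of its cartilage spots by hypertrophy genes. The share runs from 27.9% at day 0 to 60.6% at day 7, and from 68.9% in the lowest tercile to 54.7% in the highest.

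Before day 7, part of the type XI RNA lay in spots with tendon genes. At day 0 a single spot of 30759 UMIs held 14 of 70 Col11a1 UMIs, 10 of 181 Col11a2, 6 of 13 Col2a1 and 3 of 34 Col9a2. That spot also held 108 Thbs4, 74 Fmod, 33 Tnmd and 6 Scx UMIs, which mark tendon, and 0 UMIs of the 10 cartilage matrix genes. A further spot of 16698 UMIs held 6 Col11a1 and 3 Col2a1 UMIs with 27 Thbs4 and 21 Fmod. These 2 spots thus held 9 of the 13 Col2a1 UMIs of uninjured muscle.

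Over all early spots with Col11a1 the tendon genes were also higher. After thinning, the 11 tendon and sheath genes were 16.9 times as high in spots with Col11a1 as in spots without at day 0 (3.62 to 29.7 over draws), 7.31 times at day 1 (3.75 to 10.9) and 4.01 times at day 3 (3.10 to 5.26). A mean of 8 spots at day 0, 5.75 at day 1 and 18.3 at day 3 kept a Col11a1 UMI. With all UMIs the ratios were 7.38, 6.79 and 3.90, over 39, 27 and 127 spots. For Col11a2 the ratios with all UMIs were 2.90, 5.18 and 2.55, over 140, 36 and 155 spots. Col11a2 was also found in muscle-rich spots, at 3.88 CPM at day 0 (2.79 to 5.27, 41 of 181 UMIs) and 3.11 CPM at day 1 (1.78 to 5.05, 16 of 36 UMIs), beside section levels of 4.13 and 2.15. At day 3 it stood at 1.69 CPM there (0.902 to 2.90), beside 3.31 over the section. The cartilage matrix list was low at that time, at 4.79, 7.99 and 4.67 CPM over the sections, against 712 CPM at day 7. Within these low levels, with all UMIs, it was 2.77 times as high in spots with Col11a1 at day 0 (1.36 to 5.07). For Col11a1 the ratio was 0.461 at day 1 (0.0116 to 2.61) and 1.72 at day 3 (1.11 to 2.57). For Col11a2 it was 1.44 at day 0 (0.902 to 2.22), 0 at day 1 (0 to 1.35) and 2.88 at day 3 (2.07 to 3.95). At day 7, with all UMIs, the tendon list was 2.85 times as high in spots with Col11a1, and the cartilage matrix list was 7.06 times as high.

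At day 3 the 20 Col9a1 UMIs fell in 20 spots, in which the adult myofibre list was 1.74 times as high as in other spots (1.72 to 1.76) and the tendon list 0.676 times. Of those 20 UMIs, 10 were in the 742 muscle-rich spots, and at day 1 it was 7 of 17 in 644 spots, beside 16 of 36 for Col11a2. Col9a3, with 31 UMIs at day 3, had the tendon list at 0.993 times and the adult myofibre list at 0.541 times the level of other spots. At these counts each is a description of a few spots.

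**Figure D5:**
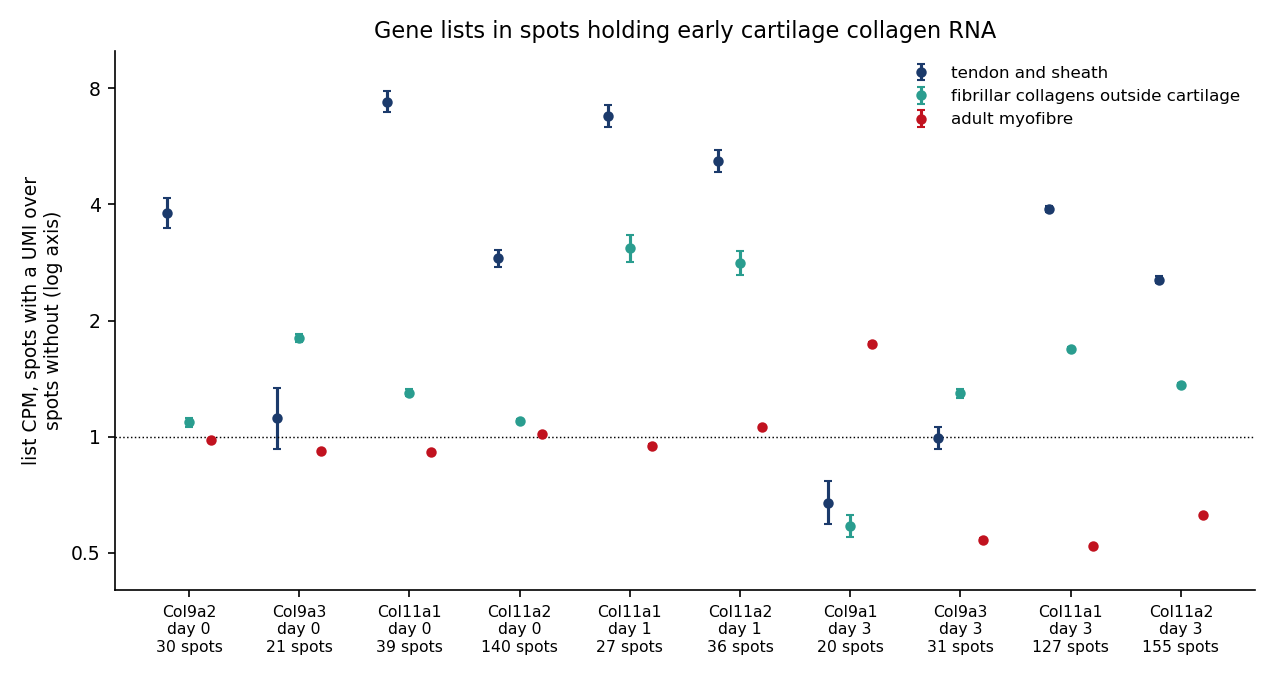
Level of 3 gene lists in spots with at least 1 UMI of a member over spots without, all UMIs used, on a log axis with 95% counting intervals, for members with at least 20 UMIs in the day 0, 1 or 3 section. The dotted line marks equal levels. The tendon and sheath list lies at 7.38, 6.79 and 3.90 for Col11a1 at days 0, 1 and 3, and the adult myofibre list lies at 1.74 for Col9a1 at day 3.

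Across the 2948 day 7 spots, member RNA varied together. Pearson's r of log levels was between 0.727 and 0.778 for pairs among Col2a1 and the type IX and XI genes, and between 0.368 and 0.433 for pairs with Col10a1. Spots share a section and differ in depth, so these values are descriptions. Col10a1 had 444 UMIs in 233 spots at day 7, against at least 6016 UMIs for each other member. Whether its lower r reflects this low count was not tested. Outside the 7 members, the genes whose pattern was most like Col2a1 were Pth1r (0.79), Matn4 (0.77), Col1a2 (0.76) and Acan (0.76). For Col10a1 they were Slc13a5, a citrate transporter (0.51), Snorc, a cartilage proteoglycan (0.48), Hapln1 (0.45), Pth1r (0.45) and Ihh (0.44). For Col11a1 they were Acan (0.75), Col12a1 (0.74), Matn4 (0.74) and Comp (0.73), and for Col11a2 they were Matn4 (0.72), Pth1r (0.72) and Acan (0.71). Among the first 10 genes, Ihh was listed for Col10a1 and for none of the other 6 members.

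After thinning, Col2a1 and Col11a1 were both present in 15.0% of spots, 1.78 times the product of their separate shares. Col2a1 and Col10a1 were both present in 1.63% of spots, 2.25 times that product. Col9a1 and Col10a1 met in 1.24%, which was 3.54 times the product. The highest ratio possible is lower when a partner is commoner, and Col2a1 was in 37.8% of thinned spots and Col9a1 in 18.4%. These ratios therefore do not rank the pairs. Spearman's rank correlation over thinned spots was 0.187 for Col10a1 with Col2a1 and 0.187 with Col9a1.

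Genes that fold and cross-link collagen were followed by section. Of 28 such genes, 15 were at least 2-fold higher at day 3 over day 0, against 31.9% of all features, and 1 was lower, against 8.53%. At day 7 over day 0, 20 were higher, against 32.0%. With TMM factors 9 were higher at day 3, against 18.6% of all features, and 12 at day 7, against 14.7%. With size factors these counts were again 9 and 12, against 18.4% and 14.4%. Plod2, which hydroxylates lysine for cross-links, was 5.14-fold higher at day 3 and 14.3-fold at day 7. P4ha3, a prolyl hydroxylase subunit, stood at 0.228 CPM at day 0, 13.9 at day 3 and 22.5 at day 7. Serpinh1, the collagen chaperone, was 2.05-fold higher at day 3 and 2.46-fold at day 7. Lox, a cross-linking oxidase, was 15.4-fold higher at day 3 and 7.14-fold at day 7. Of 13 collagen receptors and collagen-cutting proteases, 8 were at least 2-fold higher at day 7 over day 0, against 32.0% of all features. With TMM or size factors 6 were higher, against 14.7% or 14.4%. Itga10, an integrin chain that binds type II collagen, stood at 1.14, 0.894, 0.802 and 13.0 CPM at days 0, 1, 3 and 7. It was the only gene of the 13 that was 10-fold higher at day 7 over day 3, against 0.997% of all features. Mmp13, the collagenase of hypertrophic cartilage, stood at 4.62 CPM at day 3 and 4.90 at day 7.

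Cartilage genes that are not collagens were also mostly higher at day 7, with exceptions. Of 10 matrix genes, 10 were at least 2-fold higher at day 7 over day 0, against 32.0% of all features. Over day 3, 10 were at least 2-fold higher, against 16.5%, and 7 of them past 10-fold, against 0.997%. Of 10 hypertrophy and mineralization genes, 9 were at least 2-fold higher at day 7 over day 0, against 32.0%. Relative to day 3, 7 of these 10 were higher, against 16.5%, and 6 of them past 10-fold, against 0.997%. Phospho1 and Slc37a2, 2 of 10, were at least 2-fold lower than at day 3, against 11.4%. Mmp13 and Slc37a2 were at least 2-fold higher than at day 0 at days 1 and 3. That was 2 of 10 on each day, against 16.6% and 31.9% of all features. Sox9 stood at 3.90, 27.3, 15.6 and 84.5 CPM at days 0, 1, 3 and 7, so it was 7.00-fold above day 0 at day 1, when Col2a1 held 2 UMIs. Of 11 chondrogenic factors, 9 had at least 10 UMIs over the sections. Of these 9, 4 with Sox9 among them were at least 2-fold higher at day 1, against 16.6% of all features. Sox6 was at least 2-fold lower, 1 of 9, against 9.93%. As a whole the list stood at 234, 151, 187 and 368 CPM at days 0, 1, 3 and 7. Bglap (osteocalcin, made by mature osteoblasts) gave 3, 0, 6 and 2 UMIs.

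Annotated genes that overlap a member were checked, since reads could be shared between them. Gm46536, a long non-coding RNA, overlaps Col2a1 by 6264 bases and matched no feature by symbol, so its overlap could not be checked by counts. Col10a1 lies wholly within Nt5dc1, which gave 3.10, 6.74, 6.31 and 6.77 CPM at days 0, 1, 3 and 7. In the 260 cartilage spots Nt5dc1 was 1.51 times its level in spots without matrix RNA (0.874 to 2.58), and Col10a1 was 53.0 times (27.5 to 117). Tcfl5 overlaps Col9a3 by 237 bases and gave 3, 0, 12 and 172 UMIs, and in cartilage spots it was 14.6 times its level in spots without matrix RNA (7.02 to 35.3). The ratio of Col9a3 itself was 46.9. Overlaps were found by position without regard to strand, and whether reads were shared between Tcfl5 and Col9a3 was not tested.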

How the data were processed

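The authors deposited UMI counts, not normalized, for each gene in each spot, made with 10x Genomics software. Space Ranger 1.2.0 is named in the table headers, other versions in the labels and methods, and mm10 in the submitters' processing notes. All 10835 spots were used, and no doublet caller was run because a spot covers several cells. Counts were summed by section and scaled to CPM, with exact 95% Poisson, binomial or conditional intervals that cover counting error only. A count under 3 UMIs was entered at 3 for a bound. For spot shares, each spot was thinned to 2000 UMIs in 20 draws. Likeness was Pearson's r of ln(1 + UMIs per 10000) among 10725 genes with at least 200 UMIs at day 7. Members were left out of the likeness lists, and up to 5 of the first 10 genes are named. Named genes were the members, the genes of the fixed lists, other collagen genes past 10-fold or in a list, and these likeness genes. Methods were tested on simulated data. The members and gene lists were chosen with earlier results of these data known. Alternative scalings used edgeR 4.0.16 and DESeq2 1.42.0, with no count model since a group has 1 section. Python 3.11.15 (SciPy 1.17.1, NumPy 2.4.6) and R 4.3.3 were used. Spot positions, images, protein sequences and the single-cell libraries of the study were not analysed here.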

Additional observations from a re-analysis of the deposited data

How the results depend on the processing

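No paired analysis was possible because each day has 1 section. The log2 ratio of the 7 members summed at day 3 over day 0 was 0.10 by section total, -0.45 with TMM factors, -0.46 with DESeq2 size factors, -0.32 with a total without mitochondrial, haemoglobin and adult myofibre genes, and 0.34 without the 1% of spots richest in members. At day 7 over day 0 it was 7.63 by section total and 7.02, 6.99, 7.34 and 7.99 in the same order. The log2 ratio of Col2a1 at day 3 over day 0 reversed from -1.73 to 0.40 without the richest spots, by construction since 6 of its 13 UMIs at day 0 lay in a single spot. Members at least 2-fold lower at day 1 numbered 1 by section total and 2 by each of the 3 other scalings, and members at least 2-fold higher at day 3 numbered 3 and 1. For day 1 the share of all features by the 3 other scalings is not given here. Over all features, 5503 were at least 2-fold higher at day 3 by section total, and 3216, 3173 and 3608 by TMM factors, size factors and the reduced total, while 1472 were lower, and 2886, 2914 and 2504. At day 7 over day 0, 5517 were higher and 2538 and 2476 by TMM and size factors, and 367 were lower and 1162, 1217 and 621 by the 3 scalings. The 7 of 7 members at day 7 held under each alternative run. Summed member CPM was 222 in the zone without matrix RNA and 204 with spots of at least 4000 UMIs. With zones drawn without Acan it was 2611 in place of 1540 at 5 to 20 and 27410 in place of 19824 at 50 or more. The planned classes by hypertrophy genes gave no comparison, since 258 of 260 cartilage spots fell in the same class. The planned comparison of protein sequences was not run. Low early counts limit ratios for Col2a1, Col9a1, Col9a2 and Col10a1, as their intervals show, and 1 section per day leaves variation between animals unmeasured.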

Other observations

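Of 37 collagen genes outside the cartilage family, 23 were at least 2-fold lower at day 1 over day 0, against 9.93% of all features, and 2 were higher, against 16.6%. At day 7 over day 0, 21 were higher, against 32.0%, and 1 was lower, against 2.13%. With TMM factors the day 7 counts were 15 higher and 7 lower, against 14.7% and 6.74%, and they were also 15 and 7 with size factors, against 14.4% and 7.06%. Col1a1, the main collagen of bone and tendon, stood at 2253, 214, 1309 and 10600 CPM at days 0, 1, 3 and 7. Col27a1, a fibril collagen of cartilage, was 19.7-fold higher at day 7 over day 3 (17.2 to 22.5). Col6a5 and Col6a6, chains of type VI collagen, were the other genes past 10-fold at day 7 over day 3, at 21.8-fold (8.12 to 82.4) and 12.5-fold (10.0 to 15.8). Both were at least 2-fold below their day 0 level at day 3. At day 7 Col6a5 was neither 2-fold higher nor 2-fold lower than at day 0, so its ratio to day 3 started from a lowered level. Col6a6 was below its day 0 level at day 7, at 0.616 times (0.564 to 0.672), so its ratio to day 3 was a return from 1.55 CPM.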
